A study of Mus musculus with 6 samples.

Results

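The genes described here are 10 imprinted genes of the network that governs growth after birth: *H19*, *Peg3*, *Dlk1*, *Meg3*, *Grb10*, *Cdkn1c*, *Mest*, *Plagl1*, *Ndn* and *Rian*. They were found by symbol among the 53084 genes of the count table, each in 1 row, and all 10 were among the 15075 genes with enough counts to be tested. The related imprinted pair *Igf2* and *Igf2r* did not belong to the group and is used only as a reference. The study compared muscle RNA from 3 *Tarsl2*+/+ mice (583, 584 and 595) with that from 3 *Tarsl2*-/- mice (588, 589 and 591) in order to profile gene expression without the threonyl-tRNA synthetase-like protein that *Tarsl2* encodes. All 6 mice were 6-week-old C57BL/6 males on standard chow, and each library came from a different mouse. The null allele was made by Cas9 with a pair of guide RNAs placed around exon 3, injected into C57BL/6J zygotes, and is carried in every tissue. How many founders the sequenced mice descend from was not given in the sources used here. Which muscle was dissected was not given in the sources used here, and the label of *Tarsl2*-/- mouse 589 carries an additional letter whose meaning is not stated.

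An imprinted gene is transcribed from the copy inherited from a single parent, and in many imprinted stretches the copies are told apart by DNA methylation laid down in the germ line at a control region, on the active or the silent copy depending on the gene. Many imprinted genes lie side by side and share a control region, so that the paternally expressed *Igf2* and the maternally expressed *H19* compete for the same enhancers, while *Dlk1* lies next to the maternally expressed noncoding RNAs *Meg3* and *Rian*. In rodents a set of these genes is highly expressed before birth and declines together as body growth slows. In muscle, several members are known from developing or regenerating fibres and from the connective tissue and satellite cells between the fibres. Whole muscle RNA does not separate parental copies, so every level given here is the sum of both.

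The libraries held 16176591 to 20123767 counts, so that 3 counts of a gene corresponded to 0.149 to 0.185 CPM (TMM-scaled counts per 1000000). The common coefficient of variation between mice of a genotype was 12.1%. *Tarsl2* fell from 27.7 ± 3.999 CPM (SD, n = 3) to 1.97 ± 0.231 CPM in the *Tarsl2*-/- mice (log2 -3.82, adjusted p = 6.45e-07, edgeR's quasi-likelihood test), the direction that the genotype labels give. Myofibre markers summed to 48587 to 62024 CPM in every library. The extraction protocol in the sample records speaks of retina, but no listed retinal gene exceeded 7 counts in any library. Mouse 589 stood apart in 2 other lists: its adipocyte markers summed to 1120 CPM against at most 603 CPM in any other mouse, and its Schwann cell markers to 113 CPM against at most 67.0 CPM. Among the adipocyte markers *Lep* was an exception, at 10.8 CPM in mouse 589 against 23.5 CPM in mouse 584. *Tarsl2*+/+ mouse 595 had the highest sum of erythrocyte markers, 10387 CPM against 7213 and 4747 CPM in mice 583 and 584, and of fibroblast markers, 13543 CPM against 12491 and 11569 CPM.

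Of the 10 genes, *Peg3* was higher in *Tarsl2*-/- muscle at an adjusted p under 0.05 and none was lower. DESeq2 and limma-voom gave the same single call. Among all genes tested, 2.27% passed that threshold in either direction and 0.896% passed it upward. An unadjusted p under 0.05 was found for 3 of the 10 (*Peg3*, *Dlk1* and *Plagl1*, all upward), where the share among all genes was 19.8%. The log2 fold change was above 0 for 7 members and below 0 for 3, with a median of 0.15 against 0.003 for all genes tested. Without *Tarsl2*+/+ mouse 595 that median was 0.03. In 2 members, *Peg3* and *Plagl1*, every *Tarsl2*-/- mouse lay above every *Tarsl2*+/+ mouse, which 12.6% of all tested genes also did.

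**Figure D1:**
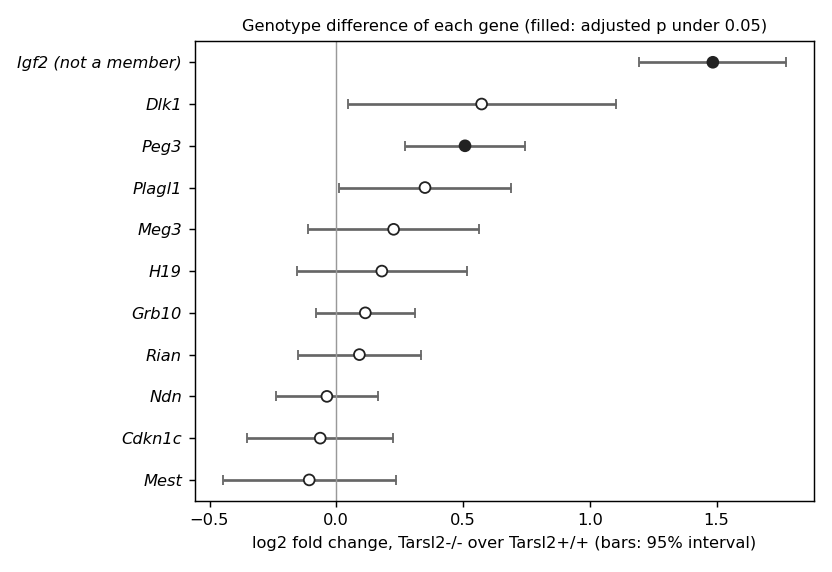
Log2 fold change (x axis, *Tarsl2*-/- over *Tarsl2*+/+) of the 10 members and of *Igf2*, which is no member, with 95% intervals from edgeR's quasi-likelihood fit and filled points for an adjusted p under 0.05. Of the members, only the intervals of *Peg3* (0.27 to 0.74), *Dlk1* (0.04 to 1.10) and *Plagl1* (0.01 to 0.69) lie above 0, and only *Peg3* passed the adjusted threshold.

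Per kilobase of transcript, the members spanned more than 3 orders of magnitude. *H19*, a noncoding RNA, was by far the most abundant at 1268 CPM per kilobase and made up 81.3 to 85.1% of all member counts in each library. *Cdkn1c* followed at 59.4, *Ndn* at 31.4, *Rian* at 10.01, *Grb10* at 7.18 and *Mest* at 3.08 CPM per kilobase. Down to *Mest*, no neighbours in this order overlapped over the 6 mice. Below it stood *Peg3* at 3.07, *Dlk1* at 2.19, *Plagl1* at 1.14 and *Meg3* at 0.794 CPM per kilobase, and each of these overlapped with the gene before it.

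**Figure D2:**
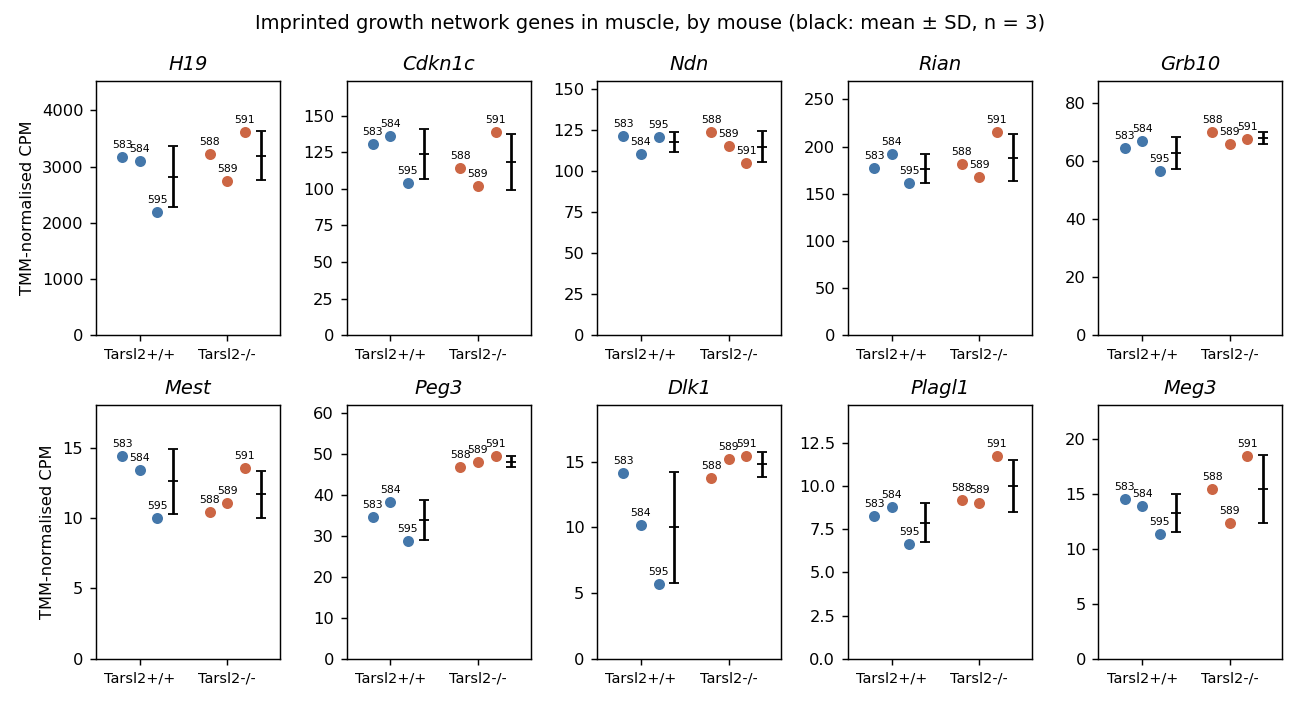
TMM-scaled CPM of each member in the 6 mice, 1 panel per gene with its own axis starting at 0, points for mice (blue, *Tarsl2*+/+; orange, *Tarsl2*-/-) and black marks for the mean ± SD (n = 3). The *Tarsl2*-/- points of *Peg3* (46.7 to 49.5 CPM) all lie above the *Tarsl2*+/+ points (28.6 to 38.3 CPM), while most other panels overlap.

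*Peg3* encodes a large zinc finger DNA-binding protein expressed from the paternal copy, and is known for effects on growth and on muscle stem cells. It lies on chromosome 7 at 6703892 to 6730431, minus strand (GRCm38), and starts head to head with *Usp29*, from which a short CpG-bearing interval separates it. That interval is shown because the only member past the threshold and its neighbour with the largest shift both start from it. It comprises 146 bases at chr7:6730432-6730577, printed on the minus strand from the GRCm38.p6 sequence of RefSeq, with its 5 CpG dinucleotides in capitals:
Peg3-Usp29 interval: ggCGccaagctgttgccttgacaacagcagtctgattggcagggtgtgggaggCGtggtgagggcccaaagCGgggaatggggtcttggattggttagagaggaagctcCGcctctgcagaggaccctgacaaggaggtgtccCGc
The motif CCAAT, searched on both strands, occurs 2 times in it, starting at positions 35 and 90. In the RefSeq promoter table, 33.8% of the 32817 windows of 250 bases before a transcript start hold CCAAT, as do 2 of the 12 windows found for 8 of the members, those of *Peg3* and *Meg3*. No methylation or binding was measured in these samples.

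*Peg3* stood at 34.6, 38.3 and 28.6 CPM in *Tarsl2*+/+ mice 583, 584 and 595, and at 46.7, 48.0 and 49.5 CPM in *Tarsl2*-/- mice 588, 589 and 591. All 3 *Tarsl2*-/- mice were above all 3 *Tarsl2*+/+ mice, and mouse 595 was the lowest. The means were 33.8 ± 4.86 and 48.0 ± 1.43 CPM (SD, n = 3), a 1.42-fold difference with a 95% interval of 1.21 to 1.67 (log2 0.51, SE 0.11, adjusted p = 0.0347 by edgeR's quasi-likelihood test). An exact two-sided permutation test gave p = 0.1, the smallest that 3 mice against 3 allow. The call held with other tools and scalings but not when 1 mouse was left out, except without mouse 584: the adjusted p was then 0.0160, and lay between 0.0722 and 0.124 without any of the other mice.

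The genes beside *Peg3* were then examined, chosen by position within 1.5 Mb among the imprinted genes listed. *Usp29*, a paternally expressed ubiquitin protease gene that is low in muscle, was at 0.585, 0.744 and 0.420 CPM in *Tarsl2*+/+ and at 1.28, 1.06 and 1.26 CPM in *Tarsl2*-/- mice. These values rest on 10, 14 and 8 counts against 23, 17 and 26 counts. The genotypes did not overlap, but with a log2 fold change of 1.04 (95% interval 0.30 to 1.78) the adjusted p of *Usp29* was 0.125. *Zim1*, a maternally expressed zinc finger gene on the other side of *Peg3*, went from 6.75 ± 1.06 to 9.13 ± 1.79 CPM (log2 0.44, adjusted p = 0.193). *Zfp264* was listed at 0 in all 6 libraries. Thus the fold changes of all 3 tested genes in this stretch of 319.8 kb were positive, with *Peg3* alone past the threshold. Among all 15075 tested genes, 7603 had a positive fold change.

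*H19* is a maternally expressed noncoding RNA that serves as the host of a microRNA and lies downstream of *Igf2* at chromosome 7, 142575529 to 142578143, minus strand. It was at 3174, 3095 and 2193 CPM in *Tarsl2*+/+ mice 583, 584 and 595 and at 3219, 2744 and 3620 CPM in *Tarsl2*-/- mice 588, 589 and 591. The genotypes overlapped, with mouse 595 lowest and mouse 591 highest. Its log2 fold change was 0.18 with a 95% interval of -0.16 to 0.52 (adjusted p = 0.561), so that a rise of up to 1.43-fold stayed inside the interval.

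*Igf2*, the fetal growth factor encoded next to *H19* and overlapped by the opposite-strand *Igf2os*, was at 97.9 ± 17.7 CPM in *Tarsl2*+/+ and 274 ± 23.4 CPM in *Tarsl2*-/- muscle (log2 1.49, SE 0.13, adjusted p = 0.000464). Because both RNAs are read from the same library, their ratio does not depend on how libraries are scaled. For every 1000 counts of *H19* there were 34.6, 34.4 and 35.4 counts of *Igf2* in the *Tarsl2*+/+ mice, and 77.4, 101 and 81.7 in the *Tarsl2*-/- mice. The ratio varied by 1.42% (coefficient of variation) among *Tarsl2*+/+ mice, although *Igf2* alone varied by 18.1% there, and by 14.6% among *Tarsl2*-/- mice. The *Tarsl2*+/+ libraries held 1877, 2006 and 1477 counts of *Igf2*. Counting error alone exceeds 1.42% at such counts, so this value from 3 mice does not measure how closely the RNAs vary together. Its geometric mean was 2.48 times higher in *Tarsl2*-/- muscle (exact permutation p = 0.1, the smallest possible; adjusted over the 4 ratios computed, 0.4) and 2.29 to 2.61 times higher when any mouse was left out. *Igf2r*, the clearance receptor for the IGF2 protein, was at 33.6 ± 1.99 and 34.7 ± 1.43 CPM (log2 0.05, adjusted p = 0.813).

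**Figure D3:**
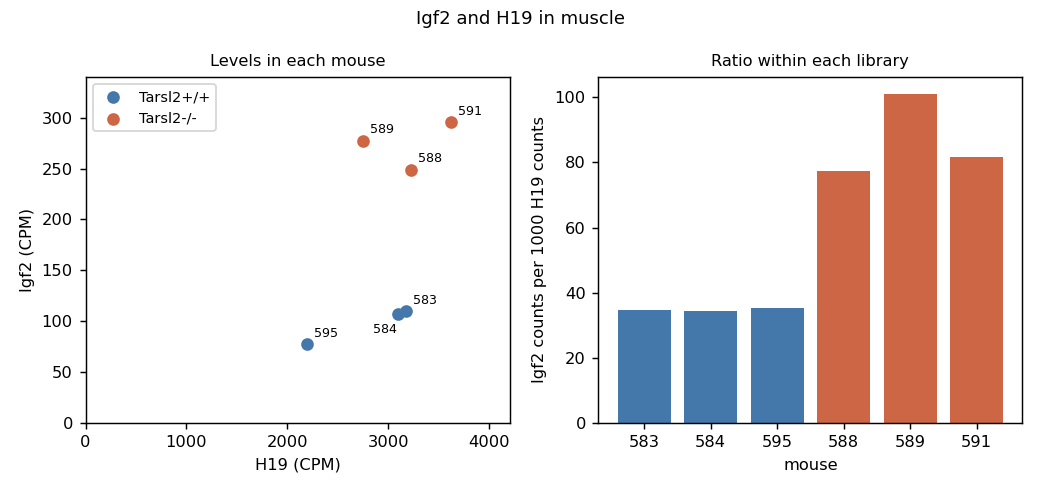
*Igf2* against *H19* in TMM-scaled CPM, and the counts of *Igf2* per 1000 counts of *H19*, with mice as points (left, linear axes from 0) or bars (right; blue, *Tarsl2*+/+; orange, *Tarsl2*-/-). The 3 *Tarsl2*+/+ mice lie at ratios of 34.4 to 35.4 and the 3 *Tarsl2*-/- mice at 77.4 to 101.

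In RefSeq, 4 of the 10 members host 13 mature microRNAs. The microRNAs of *H19* and *Mest* are shown because their hosts are a spliced RNA and a protein gene whose counts stand for the transcript and not for the small RNA. The sequences are from RefSeq on GRCm38.p6, with the seed (bases 2 to 8) in capitals. miR-675-5p lies at chr7:142577112-142577133 and miR-675-3p at chr7:142577078-142577099, both on the minus strand in *H19*; miR-335-5p lies at chr6:30741314-30741336 and miR-335-3p at chr6:30741354-30741375, both on the plus strand in *Mest*:
miR-675-5p: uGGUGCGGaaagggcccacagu
miR-675-3p: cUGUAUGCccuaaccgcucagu
miR-335-5p: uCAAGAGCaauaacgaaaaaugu
miR-335-3p: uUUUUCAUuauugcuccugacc
No seed was shared among the 13. *Meg3* carries 3 of the others and *Rian* 6. The small RNAs themselves were not measured by these libraries, and the row of the *Mir675* hairpin was at 0 counts.

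*Cdkn1c*, a maternally expressed inhibitor of cyclin-dependent kinases that restrains the cell cycle, lies on the same stretch of chromosome 7 at 143458339 to 143461050, minus strand. It was at 130, 136 and 104 CPM in *Tarsl2*+/+ and 114, 102 and 139 CPM in *Tarsl2*-/- mice. The ranges lay almost on top of each other. The log2 fold change was -0.06 with a 95% interval of -0.35 to 0.22 (adjusted p = 0.839), and its sign turned when mouse 584 or mouse 589 was left out. Of the 6 tested imprinted genes in this stretch of 1181.5 kb, 5 had positive and 1 a negative fold change, and *Igf2* alone passed the threshold.

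*Dlk1* encodes a paternally expressed transmembrane protein related to Notch ligands that is known to restrain adipocyte formation and to act in muscle growth. It lies on chromosome 12 at 109452823 to 109463336, plus strand. It was at 14.1, 10.1 and 5.67 CPM in *Tarsl2*+/+ and at 13.7, 15.2 and 15.5 CPM in *Tarsl2*-/- mice. *Tarsl2*+/+ mouse 583 lay within the *Tarsl2*-/- range and mouse 595 far below it, so the *Tarsl2*+/+ mice had a coefficient of variation of 42.5%, the largest of any member in either genotype. The log2 fold change was 0.57 with an SE of 0.24 (95% interval 0.04 to 1.10, unadjusted p = 0.0360, adjusted p = 0.216 by edgeR's quasi-likelihood test). It was 0.29 without mouse 595 and 0.90 without mouse 583.

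*Meg3* and *Rian*, maternally expressed noncoding RNAs on the other side of the control region, lie at 109541001 to 109571726 and 109603940 to 109661716 of chromosome 12, plus strand. *Meg3* was at 14.6, 13.9 and 11.3 CPM in *Tarsl2*+/+ and 15.5, 12.4 and 18.5 CPM in *Tarsl2*-/- mice (log2 0.23, 95% interval -0.11 to 0.56, adjusted p = 0.450). *Rian*, which hosts small nucleolar RNAs, was at 177, 192 and 161 CPM against 181, 168 and 216 CPM (log2 0.09, 95% interval -0.15 to 0.33, adjusted p = 0.699). In both, *Tarsl2*-/- mouse 591 was highest, mouse 595 was lowest and the genotypes overlapped. The ratio of *Rian* to *Meg3* counts ranged from 11643 to 14204 per 1000 over the 6 mice (exact permutation p = 0.2). *Dlk1* counts per 1000 *Meg3* counts ranged from 500 to 972 in *Tarsl2*+/+ and from 835 to 1232 in *Tarsl2*-/- mice, which overlapped (exact permutation p = 0.3). Of the 5 tested genes in this stretch of 828.3 kb, 3 had positive and 2 negative fold changes (*Mirg* at -0.12 and *Dio3* at -0.30 on the log2 scale).

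**Figure D4:**
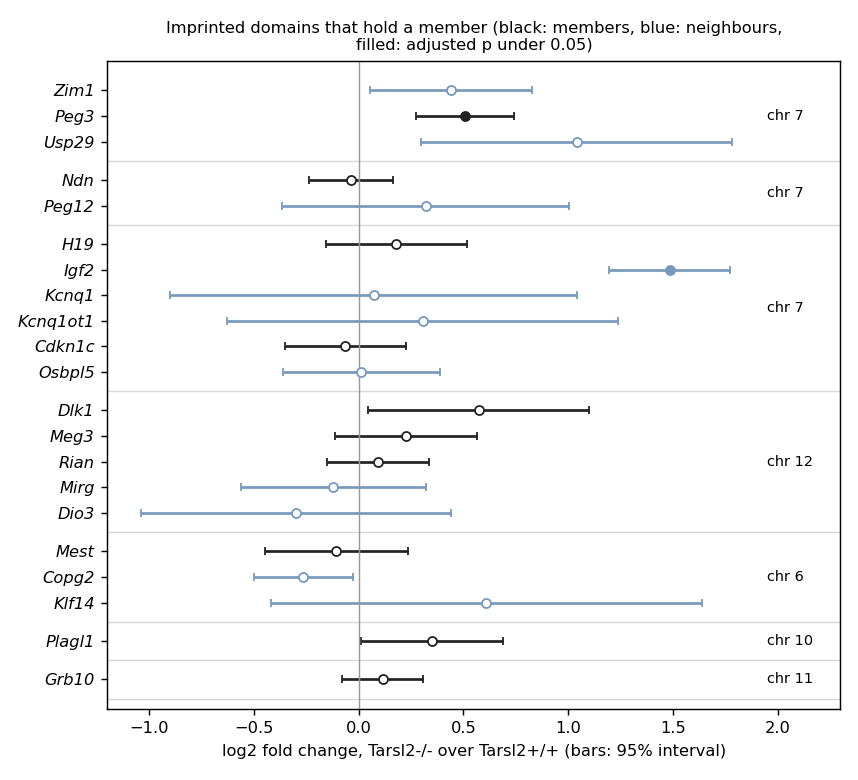
Log2 fold change (x axis) with its 95% interval for every tested imprinted gene in the stretches that hold a member, in chromosomal order from top to bottom within each stretch (black, members; blue, neighbours; filled, adjusted p under 0.05). The 3 tested genes around *Peg3* are all above 0, from 0.44 to 1.04, as are 5 of the 6 in the *H19* stretch. The *Dlk1* stretch holds values on both sides of 0.

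*Plagl1*, a paternally expressed zinc finger transcription factor known as a regulator of other imprinted genes, lies on chromosome 10 at 13060504 to 13131694, plus strand. It was at 8.24, 8.77 and 6.61 CPM in *Tarsl2*+/+ and 9.20, 9.04 and 11.8 CPM in *Tarsl2*-/- mice. The genotypes did not overlap, but mice 588, 589 and 584 lay close together. The means of 7.87 ± 1.12 and 10.001 ± 1.53 CPM gave a log2 fold change of 0.35 with an SE of 0.15 (95% interval 0.01 to 0.69, adjusted p = 0.240). *Grb10*, which encodes an adaptor that dampens insulin and IGF receptor signalling, lies on chromosome 11 at 11930508 to 12038683, minus strand. It was at 64.5, 67.0 and 56.5 CPM against 70.1, 65.9 and 67.5 CPM (log2 0.11, 95% interval -0.08 to 0.31, adjusted p = 0.517). Its *Tarsl2*-/- mice were close to each other and to mice 583 and 584.

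*Mest*, a paternally expressed member of the alpha/beta hydrolase fold family, lies on chromosome 6 at 30723547 to 30748465, plus strand. It was at 14.4, 13.4 and 10.03 CPM in *Tarsl2*+/+ and 10.4, 11.0 and 13.6 CPM in *Tarsl2*-/- mice. The genotypes overlapped, and the log2 fold change was -0.11 with a 95% interval of -0.45 to 0.23 (adjusted p = 0.755). *Copg2*, a coatomer subunit gene on the opposite strand that shares 912 bases with *Mest*, went from 19.7 to 16.4 CPM (log2 -0.26, adjusted p = 0.201). Reads from the shared bases cannot be assigned to either gene without the strand setting of the counting, which was not given in the sources used here. *Mest* counts per 1000 *Copg2* counts ranged from 512 to 735 in *Tarsl2*+/+ and from 678 to 754 in *Tarsl2*-/- mice, which overlapped (exact permutation p = 0.4).

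*Ndn*, which encodes the growth-restraining MAGE family protein necdin, lies on chromosome 7 at 62346569 to 62350262, plus strand. Of the members on this chromosome it is the nearest to *Tarsl2*, whose gene starts 3294636 bases farther along. *Ndn* was at 122, 111 and 121 CPM in *Tarsl2*+/+ and 124, 115 and 105 CPM in *Tarsl2*-/- mice, and the genotypes overlapped. Its interval was among the narrowest of the members, with a log2 fold change of -0.04 and bounds of -0.24 and 0.16 (adjusted p = 0.868). Of its imprinted neighbours, *Peg12* was tested (log2 0.32, adjusted p = 0.618) and *Magel2* and *Mkrn3* were too low to test.

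Within a genotype, some mice were high or low in most members. *Tarsl2*+/+ mouse 595 was the lowest of the 6 mice in 8 of the 10 members, whereas it was lowest in 21.7% of all tested genes. *Tarsl2*-/- mouse 591 was the highest in 7 of 10, against 15.8% of all tested genes. Relative to the mean log2 CPM of its genotype, mouse 595 was below in 9 of 10 members, with a median of -0.23, while mice 583 and 584 were above in 10 and 9. Mouse 591 was above in 8 of 10 (median 0.20) and mouse 589 below in 8 of 10 (median -0.10). The sums of erythrocyte, fibroblast and satellite cell markers were highest in mouse 595, opposite to most members there. The satellite cell sum in mouse 595 (96.9 CPM) owed 44.9 CPM to *Chodl*. *Pax7* went the other way, at 2.41 CPM in mouse 595 against 3.16 and 3.56 CPM in mice 583 and 584. The sum of pericyte and smooth muscle markers was lowest in mouse 595 (339 CPM) and highest in mouse 591 (542 CPM), as were most members. Most of this sum was *Rgs5*, at 233 and 405 CPM in these mice. The other markers did not all follow: *Acta2* was also lowest in mouse 595, but *Notch3* was lowest in mouse 591 (4.62 CPM). The adipocyte sum was also lowest in mouse 595 (313 CPM). The part of these cell types in the members' values was not tested. Over all tested genes, each mouse was below its genotype mean in 49.3 to 50.6%.

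**Figure D5:**
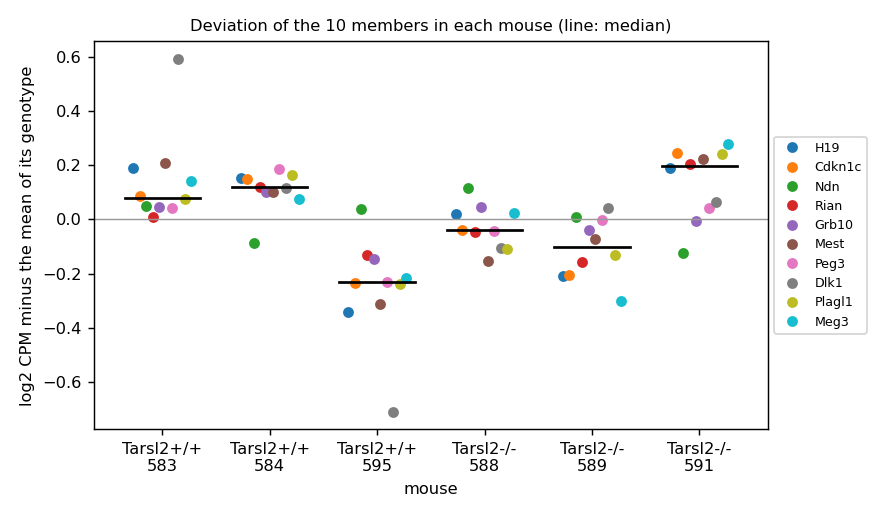
Deviation of each member's log2 CPM from the mean of its genotype, by mouse; each coloured point is a member and the black line is the median over the 10. Mouse 595 has its median at -0.23 and mouse 591 at 0.20, and *Dlk1* in mouse 595 is the lowest point.

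Beyond these genes, 41 other imprinted genes were listed, and 31 of them had enough counts. Of the 31, *Gnas* rose and none fell at an adjusted p under 0.05, 3 had an unadjusted p under 0.05 upward and 1 downward, and the median log2 fold change was 0.06. *Gnas*, which encodes the stimulatory G protein alpha subunit, was at 66.5, 70.4 and 68.5 CPM in *Tarsl2*+/+ and 96.8, 104 and 103 CPM in *Tarsl2*-/- mice (log2 0.57, SE 0.08, adjusted p = 0.00574). The mice of the genotypes were far apart, and the call held in all 12 alternative fits. Counts per gene do not separate the transcripts of *Gnas*. The gene overlaps the antisense *Nespas* on the opposite strand, whose own row was too low to test. Every *Tarsl2*-/- mouse lay above every *Tarsl2*+/+ mouse in 4 of the 31, which 12.6% of all tested genes also did. Among all tested genes, 2.27% passed the adjusted and 19.8% the unadjusted threshold in either direction. These shares are also the background for the lists that follow.

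Of 15 genes listed for keeping imprints in place, such as DNA methyltransferases and zinc finger adaptors, 14 were tested and none passed the adjusted threshold by edgeR's quasi-likelihood test, DESeq2 or limma-voom on the filtered genes, with 2 upward and 2 downward at an unadjusted p under 0.05. The smallest p belonged to *Dnmt3a*, a de novo DNA methyltransferase (26.7 and 34.0 CPM, log2 0.35, adjusted p = 0.0727). It passed in edgeR's quasi-likelihood test with no filter on low counts (adjusted p = 0.0391), a fit that is read with caution. *Smchd1*, a chromatin protein of the inactive X and of imprinted clusters, stood at log2 -0.36 (adjusted p = 0.167), and *Tet2*, which oxidises methylcytosine, at 0.33 (adjusted p = 0.169). Of 10 relatives of the members that are not imprinted, 7 were tested and none passed in any of these tools, with 1 in each direction at an unadjusted p under 0.05. Their median was -0.06, and those with the smallest p were *Cdkn1a* (log2 0.36, adjusted p = 0.150), a kinase inhibitor of the same family as *Cdkn1c*, *Maged2* (-0.21, adjusted p = 0.242), a MAGE gene like *Ndn*, and *Cdkn1b* (-0.23, adjusted p = 0.277).

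Of 16 genes listed for perinatal muscle and proliferation, 11 were tested and none passed by edgeR's quasi-likelihood test or limma-voom, and *Myl4* did by DESeq2, with 2 upward and 1 downward at an unadjusted p under 0.05, and their median log2 fold change was -0.06. *Myl4*, an embryonic myosin light chain, went from 9.30 to 14.8 CPM (log2 0.68, adjusted p = 0.0630), *Actc1*, a cardiac and fetal actin, stood at log2 -0.42 (adjusted p = 0.169), and *Igf2bp2*, an RNA-binding protein gene of fetal tissues, at 0.49 (adjusted p = 0.243). *Myl4* and *Actc1* also passed in the fit with no filter on low counts, which is read with caution. The 11 fold changes lay on both sides of 0, with 4 positive and 7 negative.

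Some markers of the cell types in muscle also moved with genotype. In whole muscle, fewer cells of a type and less RNA per cell cannot be told apart. Of 6 leukocyte markers tested, 2 fell (*Csf1r*, log2 -0.53, adjusted p = 0.0167, and *Adgre1*, -0.56, adjusted p = 0.0355), and the 7 listed markers summed to 112 to 131 CPM in *Tarsl2*+/+ against 76.5 to 91.1 CPM in *Tarsl2*-/- mice. With a mouse left out, *Csf1r* passed in 3 of 6 fits (adjusted p up to 0.0787) and *Adgre1* in 1 of 6 (up to 0.142). Of 7 endothelial markers, *Cdh5* fell (log2 -0.64, adjusted p = 0.00929), with sums over the list of 155 to 175 against 125 to 160 CPM, and it passed in 5 of 6 fits with a mouse left out (adjusted p = 0.0508 without mouse 583). *Flt1*, named after its values were seen, lay the other way, with every *Tarsl2*-/- mouse above every *Tarsl2*+/+ mouse (7.21 ± 1.37 and 10.6 ± 0.576 CPM, log2 0.55, adjusted p = 0.0787). Of 8 myofibre markers, *Myh1* and *Ckm* rose (log2 0.59 and 0.49, adjusted p = 0.01503 and 0.0433), with sums of 48587 to 52017 against 52727 to 62024 CPM. Over the 8, 6 fold changes were positive and 2 negative, with a median log2 fold change of 0.16. *Myh1* passed in 10 and *Ckm* in 5 of the 12 alternatives, and *Ckm* was lost under upper quartile scaling (adjusted p = 0.0549), with at least 10 counts asked of every library (0.0518) and in 5 of 6 fits with a mouse left out (0.0563 to 0.142).

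The connective tissue and satellite cells in which *Dlk1*, *Peg3* and *Igf2* are known to be expressed had no marker past the threshold in edgeR's quasi-likelihood test. DESeq2 called 3 fibroblast markers lower. The fit with no filter on low counts, which is read with caution, called 4 fibroblast and 2 satellite cell markers lower. All 9 fibroblast markers had negative fold changes, with a median of -0.26 and sums of 11569 to 13543 CPM in *Tarsl2*+/+ against 9588 to 11187 CPM in *Tarsl2*-/- mice, whereas *Peg3* went the other way. The 6 satellite cell markers summed to 76.3 to 96.9 against 62.8 to 86.9 CPM, with 3 positive and 3 negative fold changes. Pericyte and smooth muscle markers, 6 in number, summed to 339 to 431 against 370 to 542 CPM, with 4 positive and 2 negative fold changes. Adipocyte markers, also 6, summed to 313 to 603 against 381 to 1120 CPM. Of their fold changes 5 were positive and 1 negative, and none passed in edgeR's quasi-likelihood test on the filtered genes. Erythrocyte markers summed to 4747 to 10387 against 4165 to 4534 CPM, with a median log2 fold change of -0.85 over 5 genes and none past the threshold, though all 5 passed with no filter on low counts and 1 (*Hbb-bt*, named after its values were seen) under upper quartile scaling or with at least 10 counts asked of every library. The part of these cell types in the members' values was not tested.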

How the data were processed

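The authors sequenced polyadenylated RNA from mouse muscle and deposited a table of raw read counts (whole numbers, a row per gene) for 6 libraries, 1 per mouse. Per the paper's methods reads were aligned with HISAT2 to mm10, whereas the submitters' processing notes name Bowtie 0.12.2 and mm8. The coordinates of all 10 members in the table equal those of GENCODE vM21 (GRCm38). The counting tool, its annotation and its strand setting were not given in the sources used here. Every count column was matched to a sample, and the gene length column belongs to none. Of 53084 rows, 448 are transcribed regions with no gene name and were kept.

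Genotypes came from the cell line field of the sample records, and the sample titles matched the count columns to the mice. Genes were kept by filterByExpr (minimum count 10, minimum total 15; 15075 genes), scaled by TMM, and fitted by genotype with edgeR's quasi-likelihood test (version 4.0.16 in R 4.3.3), with Benjamini-Hochberg adjustment over all genes tested. A standard error is the absolute log2 fold change over the root of its F statistic. For single values and ratios, an exact permutation test (two-sided) ran over the 20 splits of 6 mice. The procedure was tested on simulated data. Alternatives were DESeq2 1.42.0, limma 3.58.1 (voom), other scalings and filters, and leaving out each mouse. P-values reflect the spread between the mice sequenced. Limits from 3 counts cover counting error only.

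The members, gene lists and marker lists were chosen with earlier results of these data known. Named were all members, *Tarsl2*, *Igf2*, *Igf2r* and, per list, genes with an adjusted p under 0.05, filled up to 3 by the smallest p, or for marker lists at most 3 that passed. Neighbours of members were named by position after their values were seen. The markers *Lep*, *Rgs5*, *Acta2*, *Notch3*, *Chodl* and *Pax7* were also named after their values were seen. Where a symbol had several rows, the row with the most counts was used. Levels per kilobase used the gene lengths of the deposited table.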

Additional observations from a re-analysis of the deposited data

How the results depend on the processing

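*Peg3* passed the threshold in all 6 other fits on the full set of mice (log2 fold change 0.49 to 0.52) and in 1 of 6 with a mouse left out (0.40 without mouse 595 to 0.61 without mouse 584). With no filter on low counts, 25553 genes were tested and 1437 passed, and 2 members did, *Peg3* and *Dlk1* (0.57, adjusted p = 0.00151). Of the other gene lists, *Igf2*, *Gnas*, *Dnmt3a*, *Myl4* and *Actc1* passed. Cell type markers called there included 5 adipocyte markers higher and 1 lower, *Rgs5* and *Flt1* higher, and 5 leukocyte markers lower. In that fit the SE of *Dlk1* fell from 0.24 to 0.14. Those of *H19*, *Peg3*, *Grb10*, *Ndn* and *Rian* hardly differed (0.105 to 0.109), so spread between mice counted for less. Calls made only in that fit are therefore read with caution. DESeq2 called 719 genes against 342, with 310 higher and 409 lower against 135 and 207; without the filter these were 611 and 826. With a mouse left out, 81 to 625 genes were called (31 to 242 higher, 50 to 383 lower), 0 to 1 members passed, and the members' median lay between 0.03 and 0.22. The *Igf2* to *H19* ratio, examined after seeing the data, kept log2 differences of 1.19 to 1.39. Signs turned with a mouse left out for *Cdkn1c* (0.014 without mouse 584, 0.036 without mouse 589, range -0.20 to 0.036), *Ndn* (0.021 without mouse 591, range -0.096 to 0.021), *Rian* (-0.020 without mouse 591, range -0.020 to 0.17) and *Igf2r* (-0.0017 without mouse 595, range -0.0017 to 0.075). *Tarsl2*, *Igf2* and *Gnas* passed in all 12 alternatives. The causes were not tested. No pairing by litter was made, because the sample labels do not give the litters of the sequenced mice. With 3 mice per genotype the members' standard errors lay between 0.09 (*Grb10*) and 0.24 (*Dlk1*) on the log2 scale, which limits the differences that could be detected.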
